A study of Homo sapiens with 8 samples.

Results

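Squamous differentiation genes and genes of the cornified envelope were followed in KYSE70 cells, a long-established line derived from a human squamous carcinoma of the esophagus. The 49 genes were given as a list of symbols and grouped here by role into keratins (9), small proline-rich SPRR proteins (6), envelope proteins and cross-linkers (12), kallikreins (7), protease inhibitors (3), regulators (5), and surface or calcium-binding proteins (7). All 49 were among the 28281 genes of the deposited table. RNA was sequenced from cells given 10 µM pyrimethamine, an antifolate (n = 2), from cells given 20 nM mitoxantrone, a topoisomerase II poison (n = 3), both for 72 h, and from untreated cells (n = 3); the title of the series calls both compounds inhibitors of NRF2. Every library came from this single line, and no source used here states whether replicates were separate cultures, so p-values here reflect only how much these libraries vary, and that variation may be technical.

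In stratified squamous epithelium, basal cells leave the cell cycle, move upward and switch keratins. Their uppermost layers build a cornified envelope, in which transglutaminases cross-link involucrin, SPRR proteins, envoplakin, periplakin and cystatin A beneath the membrane, while kallikreins and their inhibitors control the shedding of cells. Esophageal epithelium normally makes KRT4 and KRT13 above its basal layer, whereas KRT1 and KRT10 belong to the epidermis and KRT6 and KRT16 to activated or injured epithelium.

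Libraries held 17555689 to 24774358 reads. Values are normalised read counts, that is, reads divided by 1 size factor per library by the authors. The 2 pyrimethamine libraries stood apart from each other, with a correlation of 0.89 across genes beside 0.981 to 0.984 within the mitoxantrone group and 0.988 to 0.99 within the untreated group, so values of both are given throughout. Pyrimethamine replicate 1 correlated at 0.937 to 0.941 with untreated libraries and at 0.784 to 0.83 with mitoxantrone libraries. Replicate 2 correlated at 0.943 to 0.946 with untreated libraries and, more closely, at 0.953 to 0.967 with mitoxantrone libraries. Of the markers used to check the squamous label, all 11 basal ones (among them TP63, KRT5 and SOX2) had a mean of at least 10 over the libraries, against 1 of 9 leukocyte, 2 of 8 endothelial, 6 of 9 fibroblast and 6 of 11 glandular markers in the table. That threshold is low. In untreated cells the basal keratin KRT14 was at 33.6 normalised reads per kb of exon, beside 19061 for KRT5 and 2026 for the glandular KRT8. Summed basal markers reached 63374 and 95455 in the pyrimethamine libraries and 55114 to 59411 in the mitoxantrone libraries, against 105210 to 111627 in untreated libraries. Most of this sum was KRT5, at 46713 to 48591 with mitoxantrone and 78011 to 84458 untreated (limma, adjusted p = 0.0551). Of the 11 markers 5 were called lower with mitoxantrone, where 28.1% of all tested genes were, and 0 higher, while KRT17 lay above every untreated library. ITGA6, COL17A1, PKP1 and DSG3 lay above the untreated range in pyrimethamine replicate 1 and below it in replicate 2. Glandular markers, led by KRT8 and KRT18, summed to 15291 and 17089 with pyrimethamine and to 27700 to 28310 with mitoxantrone, against 17344 to 17844 in untreated cells, and the part of these shifts in the results that follow was not tested. In bulk RNA, a change in the share of cells that express a gene and a change in RNA per cell cannot be told apart.

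Of the 49 genes, 31 had a mean of at least 10 over the 8 libraries and were tested. The other 18 had means of at most 9.21 and are described by their reads. KRT16, SPRR1B, TGM1, SCEL, GRHL1 and OVOL1 entered the test with untreated means under 10, so their level with a compound carried them in, and counts over the tested genes are descriptions. In untreated cells KRT6A was the highest of the 49 per kilobase of exon, at 6181 normalised reads per kb, followed by KRT13 at 1043, KRT80 at 846, CSTB at 520, KRT10 at 470.2, CSTA at 457 and SLPI at 282. With mitoxantrone the per-kilobase order became KRT6A at 4676, SLPI at 3141, CSTA at 2861 and KRT10 at 913, with KRT13 in place 8 instead of place 2. The 49 genes together took 0.282% and 0.181% of reads in the pyrimethamine libraries and 0.137% to 0.153% in the mitoxantrone libraries, against 0.178% to 0.18% in untreated libraries. KRT6A alone made up 36.2% to 37.7% of the reads of the 49 genes with mitoxantrone, against 52.3% to 54.7% in untreated cells, while CSTA and SLPI together made up 14.7% to 17% with mitoxantrone, against 2.31% to 2.42%.

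**Figure D1:**
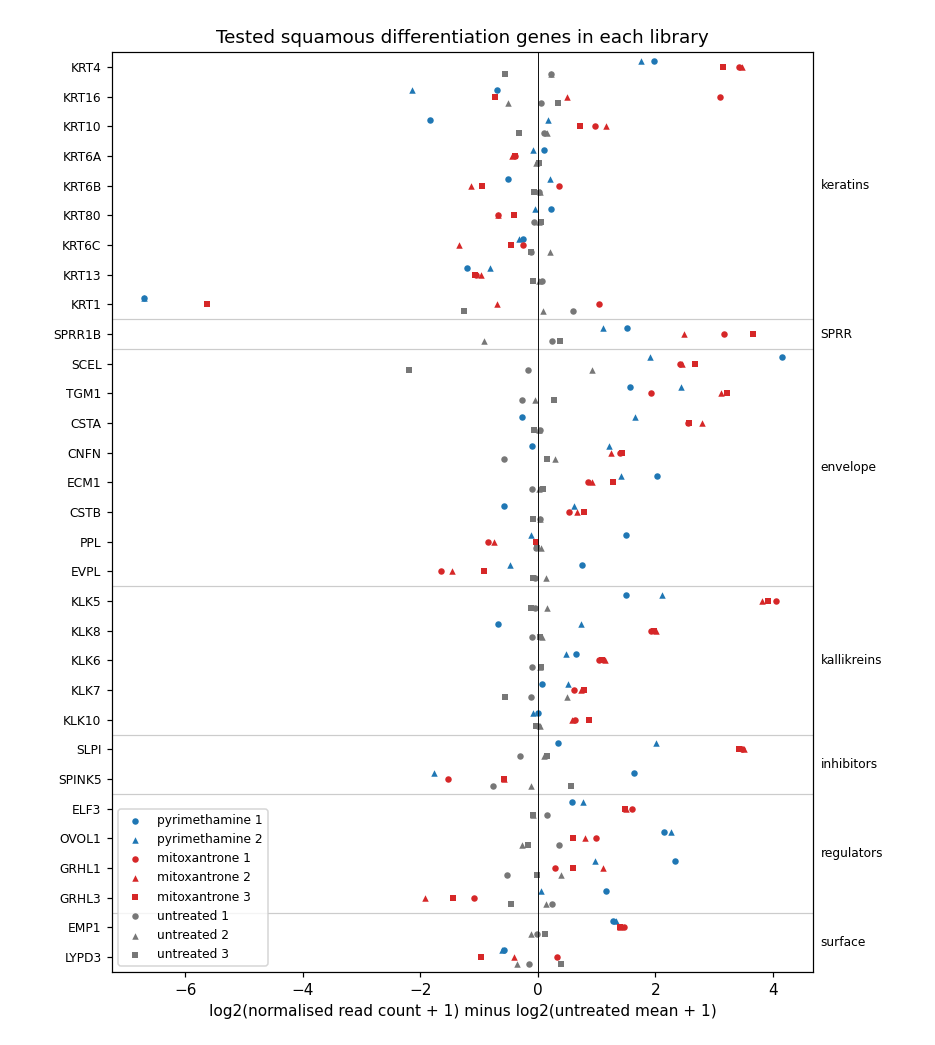
Each tested gene is a row, grouped by role, and each point is 1 library, plotted as log2(normalised read count + 1) minus that of the untreated mean (blue, pyrimethamine; red, mitoxantrone; grey, untreated; symbols give the replicate). All 5 kallikreins lie to the right of 0 in the 3 mitoxantrone libraries, the pyrimethamine points of CSTA, KLK8 and SPINK5 lie on opposite sides of 0, and KRT1 spreads widely within the mitoxantrone group.

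The first comparison asked what mitoxantrone did to these genes. Among the genes that were higher were 4 kallikreins, the inhibitor SLPI, the keratin KRT4, SPRR1B and 5 envelope genes, CSTA among them, whereas KRT13, KRT80, the plakin EVPL and the regulator GRHL3 were lower. By limma with Benjamini-Hochberg adjustment over all tested genes, 14 of 31 were higher and 4 were lower, where 26.8% and 28.1% of all 15350 tested genes were called in those directions (54.9% in either). As a share of the tested members this was 45.2% higher and 12.9% lower. Their median log2 fold change was 0.82, beside 0.00 for all tested genes. Among the 14, SPRR1B, TGM1 and SCEL entered the test only through their level with a compound, so the filter itself favoured their being higher. In 18 members all mitoxantrone libraries lay above, and in 7 below, every untreated library, as in 40.4% and 39.5% of all tested genes (79.9% in either direction). The library medians were 0.96, 0.79 and 0.78 in mitoxantrone replicates 1 to 3. The 14 higher calls numbered 13 to 15 when any 1 mitoxantrone or untreated library was left out, where 2618 to 3099 of all tested genes were called higher. The lower calls numbered 2 without mitoxantrone replicate 2, untreated replicate 1 or untreated replicate 2. In these fits 3091, 3114 and 2949 of all tested genes were called lower.

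Keratins went in different directions. KRT4, the type II keratin of suprabasal esophageal cells, had 211, 219 and 175 normalised reads in mitoxantrone libraries, against 22.1, 22 and 12.4 in untreated libraries. The groups were far apart, and the log2 fold change was 3.39 ± 0.28 (± SE from limma, adjusted p = 0.000216). KRT13, its type I partner, fell to 1462, 1560 and 1452 with mitoxantrone, against 3171, 3080 and 2861 in untreated cells (-1.02 ± 0.16, adjusted p = 0.00176). The partners of this pair thus moved oppositely, although KRT13 stayed at the higher level per kilobase, at 512 with mitoxantrone beside 61.0 for KRT4. KRT80, a type II keratin found in many epithelia, also fell, to 2464 ± 279 against 3681 ± 144 (SD, n = 3 each; log2 fold change -0.58, adjusted p = 0.0179). That call was lost without mitoxantrone replicate 1 or 2 or any 1 untreated library (adjusted p = 0.0565 to 0.0761). The abundant KRT6A averaged 13692 ± 250 with mitoxantrone and 18098 ± 362 untreated (SD, n = 3 each), and the log2 fold change of -0.40 did not pass (adjusted p = 0.121). Its near-identical copies KRT6B and KRT6C, whose reads can be shared with it, had -0.58 and -0.68, and the 3 genes summed to 13520 to 14060 with mitoxantrone, against 18010 to 18660 in untreated cells. KRT10 was at 1968, 2240 and 1662 with mitoxantrone, against 1089, 1124 and 811, with no overlap but an adjusted p of 0.0955. KRT16 was at 76.3, 11.6 and 4.41 with mitoxantrone, against 8.27, 5.32 and 10.4, with replicates 1 and 2 above the untreated range and replicate 3 below it.

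The genes of SPRR proteins and involucrin, which lie together within 197.6 kb of chromosome 1 (152908545 to 153106184, GRCh38), were near the limit of detection. SPRR1B, a cross-linked envelope precursor, was the single SPRR gene tested, with 28, 20 and 54 reads in mitoxantrone libraries, against 5, 2 and 5 reads in untreated libraries. After normalisation it reached 42.4 ± 16.9, against 3.77 ± 1.97 (SD, n = 3 each), a log2 fold change of 3.21 ± 0.49 (adjusted p = 0.00171). Summed over the 6 SPRR genes, whose close copies can share reads, reads numbered 50, 40 and 88 with mitoxantrone, against 22, 5 and 16. How shared reads were counted is not known. Involucrin (IVL) had 10.5, 5.16 and 0 normalised reads with mitoxantrone, against 0.919, 1.52 and 2.07, and the groups overlapped. SPRR1A, SPRR2A, SPRR2D, SPRR2E and SPRR3 had at most 19.9 normalised reads in any library.

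Among envelope proteins and cross-linkers, 5 of 8 tested were higher and 1 was lower, where 26.8% and 28.1% of all tested genes were called in those directions. TGM1 and SCEL, both among the 5, entered the test only through their level with a compound, so the filter itself favoured their being higher. Cystatin A (CSTA), a cysteine protease inhibitor built into the envelope, had 3683, 4349 and 3753 normalised reads with mitoxantrone, against 646, 637 and 599 untreated (2.64 ± 0.41, adjusted p = 0.00179). Its relative cystatin B (CSTB) was at 2962, 3233 and 3508, against 2092, 2106 and 1937, with no overlap, but the change of 0.66 on the log2 scale did not pass (adjusted p = 0.0724). TGM1, the transglutaminase that anchors envelope proteins to the membrane, had 12, 28.4 and 30.9, against 1.84, 2.28 and 3.11 (2.77 ± 0.50, adjusted p = 0.00305). SCEL, an envelope precursor, was at 49.3, 50.4 and 58.5, against 7.35, 16.7 and 1.04 (3.00 ± 0.82, adjusted p = 0.0163), and the call was lost without mitoxantrone replicate 3 (adjusted p = 0.0508). CNFN (cornifelin) averaged 126 ± 8.46, against 48.4 ± 14.4 (SD, n = 3 each; log2 fold change 1.40, adjusted p = 0.0149), and its call was lost without untreated replicate 1 (adjusted p = 0.0561). ECM1, a secreted glycoprotein of the upper epithelium, averaged 268 ± 44.7, against 131 ± 8.89 (1.02, adjusted p = 0.00616). Both plakins that tie the envelope to keratin filaments had lower means. Envoplakin (EVPL) fell to 247, 280 and 409, against 751, 852 and 730 (-1.34 ± 0.32, adjusted p = 0.0095). Periplakin (PPL) had 797, 859 and 1402, against 1409, 1488 and 1429, with replicate 3 close to the untreated range and an adjusted p of 0.256. TGM3 had 1.1 to 8.97 normalised reads with mitoxantrone, against 1.04 to 4.60.

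The 7 kallikrein genes lie within 121.8 kb of chromosome 19 (50943303 to 51065114). In the mitoxantrone libraries all 5 tested members stood above every untreated library, as in 40.4% of all tested genes. Of these 5, 4 passed the test, as 26.8% of all tested genes did upward. KLK5, a trypsin-like protease that activates others of the family, had 749, 629 and 678 normalised reads with mitoxantrone, against 42.3, 49.4 and 40.4 untreated. Its log2 fold change of 3.93 ± 0.21 (adjusted p = 0.000118) had the smallest adjusted p among the tested members. KLK8 had 1284, 1369 and 1330, against 314, 356 and 346 (1.97 ± 0.32, adjusted p = 0.00202). KLK6 averaged 108 ± 3.84, against 50.1 ± 2.82 (1.1, adjusted p = 0.0031), and KLK10 averaged 1082 ± 120, against 664 ± 15 (0.70, adjusted p = 0.00542; SD, n = 3 each). KLK7, a chymotrypsin-like protease of cell shedding, was at 38.9, 42.6 and 44.1, against 23.0, 35.7 and 16.6 (0.78, adjusted p = 0.0766). KLK13 had 6.46 to 10.5 with mitoxantrone, against 0 to 1.52, and KLK11 had 4.41 to 19.4, against 3.11 to 6.84.

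SLPI, a secreted inhibitor of leukocyte elastase, had 1883, 1930 and 1804 normalised reads with mitoxantrone, against 136, 181 and 187 untreated (3.48 ± 0.37, adjusted p = 0.000527). SPINK5, which encodes the kallikrein inhibitor LEKTI, was at 19.4, 38.7 and 38.6, against 34.0, 53.9 and 87.1, overlapping groups with an adjusted p of 0.406. PI3 (elafin) had 3.87 to 13.5, against 0 to 3.80. Regulators were divided. ELF3, an epithelial ETS factor, reached 857, 801 and 794, against 313, 267 and 269 (1.53 ± 0.15, adjusted p = 0.000422). GRHL3, a grainyhead factor of barrier formation, fell to 28.4, 15.5 and 22.1, against 72.6, 67.6 and 44.6 (-1.45 ± 0.38, adjusted p = 0.0141). The GRHL3 call was lost without mitoxantrone replicate 2, untreated replicate 1 or untreated replicate 2 (adjusted p = 0.0533 to 0.0549). OVOL1, a zinc finger repressor that limits growth of progenitors, had 10.5, 9.04 and 7.72, against 6.43, 3.80 and 4.15 (0.82, adjusted p = 0.0939). GRHL1 was at 0.72 on the log2 scale (adjusted p = 0.226), and ZNF750, a driver of terminal differentiation, had 0 to 5.16, against 0.919 to 8.29.

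EMP1, a tetraspan membrane protein, had 1919, 1832 and 1827 normalised reads with mitoxantrone, against 686, 639 and 756 untreated (1.42 ± 0.14, adjusted p = 0.000409). LYPD3, a surface protein of the uPAR family, was at 28.4, 16.8 and 11, against 20.2, 17.5 and 30.1, and the groups overlapped. MAL, RHCG, CALML3, CALML5 and LY6D, found in upper layers of esophagus or skin, had at most 16.6 normalised reads in any library, and MAL and RHCG had 0 reads in all 3 untreated libraries, which allows up to 3 reads in each.

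**Figure D2:**
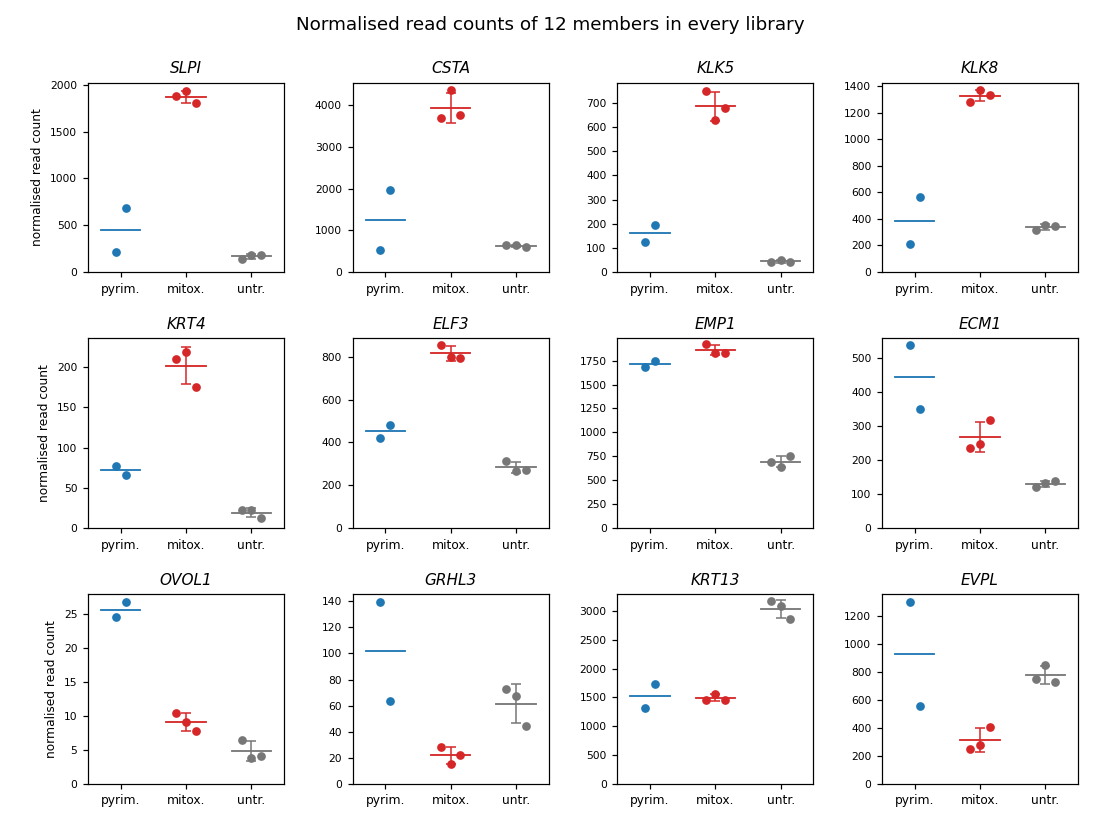
Normalised read counts (linear axes from 0) of 12 genes in every library, as points, with a line at each group's mean and bars of ± 1 SD for mitoxantrone and untreated (n = 3 each; the pyrimethamine pair has no bar). SLPI is at 1804 to 1930 with mitoxantrone against 136 to 187 untreated, KRT13 is lower with either compound, and OVOL1 is highest with pyrimethamine.

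Change with mitoxantrone followed transcript length, with a rank correlation across 14034 genes of -0.351 to -0.367 in the 3 libraries, and the tested members had a median exon length of 2928 bases, beside 4870 for all tested genes with a length. After adjustment for length, 13 members were higher and 7 lower, with a median of 0.53. In that fit 3769 of all 14034 genes were called higher and 3892 lower. The calls of KLK6 (adjusted p = 0.162) and CNFN (adjusted p = 0.547) were lost in that fit. KRT6A, KRT6B and KRT6C passed as lower, with log2 fold changes of -0.74, -1.10 and -1.02, and GRHL1 passed as higher at 1.18.

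Promoters are shown for the 4 genes that rose with mitoxantrone and hold a match to the AP-1 motif, letters TGANTCA read on both strands; AP-1 is a factor long tied to squamous differentiation genes. Windows run from 250 bases before to 50 bases after the annotated start and are RefSeq sequences on GRCh38.p14, all on the plus strand, at chr1:150507859-150508158 for ECM1, chr12:13196476-13196775 for EMP1, chr13:77535456-77535755 for SCEL and chr1:153030953-153031252 for SPRR1B. Capitals mark the motif.
ECM1: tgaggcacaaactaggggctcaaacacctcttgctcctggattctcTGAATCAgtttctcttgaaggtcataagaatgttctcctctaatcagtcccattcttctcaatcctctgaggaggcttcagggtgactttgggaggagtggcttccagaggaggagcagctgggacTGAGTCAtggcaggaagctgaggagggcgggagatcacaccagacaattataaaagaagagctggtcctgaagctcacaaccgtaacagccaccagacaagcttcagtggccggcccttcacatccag
EMP1: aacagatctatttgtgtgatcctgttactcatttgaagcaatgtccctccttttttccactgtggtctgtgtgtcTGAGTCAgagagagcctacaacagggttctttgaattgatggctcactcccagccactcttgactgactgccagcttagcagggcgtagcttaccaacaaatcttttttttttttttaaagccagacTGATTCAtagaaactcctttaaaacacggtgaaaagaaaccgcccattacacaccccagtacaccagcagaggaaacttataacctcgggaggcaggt
SCEL: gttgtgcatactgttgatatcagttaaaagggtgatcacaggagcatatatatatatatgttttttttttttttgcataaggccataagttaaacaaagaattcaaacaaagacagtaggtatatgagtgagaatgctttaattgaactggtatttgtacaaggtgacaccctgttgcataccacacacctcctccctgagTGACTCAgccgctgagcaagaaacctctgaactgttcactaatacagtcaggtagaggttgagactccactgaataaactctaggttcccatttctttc
SPRR1B: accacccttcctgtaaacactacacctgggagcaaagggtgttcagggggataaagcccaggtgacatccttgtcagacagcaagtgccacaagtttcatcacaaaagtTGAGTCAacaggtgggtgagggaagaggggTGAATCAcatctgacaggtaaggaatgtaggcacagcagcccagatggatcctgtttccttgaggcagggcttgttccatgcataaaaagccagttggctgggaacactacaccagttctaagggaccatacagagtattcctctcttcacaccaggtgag
Of the 49 genes 28 had a promoter in the RefSeq table, and 9 of these (32.1%) held the AP-1 letters, beside 9.4% of 27305 genes with windows of the same length. SPRR1A, SPRR2A, SPRR3, IVL and SBSN, which also held the letters, had values too low to be tested. Among the 14 genes higher with mitoxantrone, 10 had a promoter and 4 held the motif, so the other 6, KLK5 among them, lacked these letters in this window. The grainyhead letters AACCNGTT stood in 1 promoter (3.6%, beside 2.1% of all genes), the NRF2 element TGACNNNGC in 6 (21.4%, beside 16.1%) and the KLF letters CACCC in 26 (92.9%, beside 63.1%). The NRF2 and AP-1 letters can overlap in the bases TGAC, and CACCC is short enough to occur often.

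The second comparison asked what pyrimethamine did. KRT4, ECM1, KLK5, OVOL1 and EMP1 were higher and KRT13 was lower. This made 5 of 31 tested members higher (16.1%) and 1 lower (3.23%), where limma called 2.29% of all tested genes higher and 1.31% lower (3.6% in either direction). Among the 5, OVOL1 entered the test only through its level with a compound, so the filter itself favoured its being higher. The median log2 fold change was 0.56 over the tested members, beside -0.08 over all tested genes, with medians of 0.34 in replicate 1 and 0.50 in replicate 2. In 12 members both pyrimethamine libraries lay above, and in 5 below, every untreated library, as in 15.8% and 16.9% of all tested genes (32.7% in either direction). Relative to the untreated mean, the pyrimethamine libraries moved in the same direction for 19 of 31 members (61.3%), 14 above and 5 below, beside 44.1% of all tested genes. These calls rest on a spread shared with the other groups. In a limma fit on the pyrimethamine and untreated libraries alone 0 members were called, with 11 at an unadjusted p under 0.05, beside 2077 of all 15350 tested genes. On recovered reads of all libraries, edgeR called 5 higher and 1 lower and DESeq2 called 10 higher and 2 lower. Of all tested genes, edgeR called 483 higher and 187 lower, and DESeq2 called 1037 and 701. The count of higher members was also 0 without any 1 untreated library, and 3, 1 and 3 without mitoxantrone replicates 1, 2 and 3. All tested genes called higher then numbered 9 to 10 without an untreated library, and 70, 52 and 102 without those mitoxantrone replicates. Leaving out a pyrimethamine library leaves 1 in that group, with no spread of its own, so no count is given.

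EMP1 had 1685 and 1751 normalised reads with pyrimethamine, against 686, 639 and 756 untreated, a log2 fold change of 1.31 ± 0.15 (adjusted p = 0.0115). KLK5 had 126 and 194, against 42.3, 49.4 and 40.4 (1.81 ± 0.24, adjusted p = 0.0128). ECM1 had 538 and 351, against 121, 132 and 139 (1.73 ± 0.24, adjusted p = 0.0156). In each of these the pyrimethamine libraries stood above all untreated ones. KRT4 reached 77.1 and 65.8, against 22.1, 22 and 12.4 (1.91 ± 0.31, adjusted p = 0.0208), and KRT13 fell to 1309 and 1724, against 3171, 3080 and 2861 (-1.01 ± 0.18, adjusted p = 0.0251). OVOL1 had 43 and 26 reads with pyrimethamine, against 7, 5 and 4 reads; its normalised values were 24.5 and 26.7, against 6.43, 3.80 and 4.15 (2.23 ± 0.42, adjusted p = 0.0316).

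Several members differed more between the pyrimethamine libraries than between groups. CSTA was at 519 in replicate 1 and 1968 in replicate 2, against 599 to 646 untreated. KLK8 was at 210 and 566, against 314 to 356, and KRT10 at 281 and 1142, against 811 to 1124. In each of these 3 genes replicate 1 was below and replicate 2 above the untreated range. SPINK5 was at 184 and 16.5, against 34.0 to 87.1, and EVPL at 1301 and 557, against 730 to 852, with replicate 1 above and replicate 2 below. PPL had 4084 in replicate 1 and 1326 in replicate 2, against 1409 to 1488. Change from the untreated mean had a rank correlation with transcript length of 0.277 in replicate 1 and -0.355 in replicate 2. After adjustment for length 6 members were higher and 1 lower, the addition being SLPI (log2 fold change 1.24, adjusted p = 0.0117), which before adjustment had 213 and 680, against 136, 181 and 187 (1.19, adjusted p = 0.163). Of all 14034 genes in the adjusted fit, 576 were called higher and 382 lower. ELF3 had 422 and 480, against 313, 267 and 269, with no overlap and an adjusted p of 0.0674. TGM1, at 9.13 and 17.5 against 1.84 to 3.11, and SCEL, at 165 and 33.9 against 1.04 to 16.7, were also separated and missed the threshold (adjusted p = 0.0873 and 0.0777). GRHL3 had 139 and 63.8, against 72.6, 67.6 and 44.6 (0.64, adjusted p = 0.47), and GRHL1 had 46.2 and 17.5, against 5.51, 11.4 and 8.29 (1.70, adjusted p = 0.125). KRT6A, at 19487 and 16994 against 17699 to 18405, had a log2 fold change of 0.01 ± 0.23.

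The third comparison set mitoxantrone directly against pyrimethamine. The kallikreins KLK5, KLK8 and KLK10, SPRR1B, SLPI, CSTA, ELF3 and the keratins KRT4, KRT10 and KRT1 were higher with mitoxantrone, and EVPL, ECM1, KRT80 and the regulators GRHL3 and OVOL1 were higher with pyrimethamine. In all, 10 of 31 members were higher with mitoxantrone (32.3%) and 5 lower (16.1%), where 21.2% and 19.9% of all tested genes were called in those directions (41% in either). SPRR1B and OVOL1, counted here, entered the test only through their level with a compound. In 14 members the mitoxantrone libraries lay above, and in 6 below, both pyrimethamine libraries, as in 32.9% and 30.4% of all tested genes (63.3% in either direction). The comparison is between 1 dose of each compound, and the doses differ. Both comparisons with untreated cells share those 3 libraries, so their values are given side by side and no overlap between them is drawn.

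SLPI was at 1883, 1930 and 1804 with mitoxantrone, against 213 and 680 with pyrimethamine (2.29 ± 0.42, adjusted p = 0.0187). KLK5 was at 749, 629 and 678, against 126 and 194 (2.12 ± 0.24, adjusted p = 0.0133), and the log2 values were 1.94 for KLK8 and 0.74 for KLK10 (adjusted p = 0.0188 and 0.0222). In the mitoxantrone libraries all 5 tested kallikreins stood above both pyrimethamine libraries, as in 32.9% of all tested genes. KLK6 and KLK7 did not pass (adjusted p = 0.0775 and 0.353). After adjustment for length their log2 values were -0.13 and -0.07 (adjusted p = 0.738 and 0.88). The log2 fold change was 1.95 for CSTA (adjusted p = 0.024), 1.77 for KRT10 (adjusted p = 0.0295), 1.80 for SPRR1B (adjusted p = 0.0357), 1.48 for KRT4 (adjusted p = 0.0219) and 0.86 for ELF3 (adjusted p = 0.0195). The CSTA and KRT10 differences depended on which pyrimethamine library was kept. Without pyrimethamine replicate 1 they were 0.99 for CSTA and 0.77 for KRT10, and without pyrimethamine replicate 2 they were 2.91 and 2.78. The CSTA and KRT10 calls were lost in 6 and 10 of 23 alternatives. The alternatives include fits that leave 1 pyrimethamine library, with no spread of its own. KLK8 and SLPI also differed between the pyrimethamine libraries, at 210 and 566 and at 213 and 680. Over the alternatives their differences ran from 1.23 to 2.65 and from 1.04 to 3.13, and each call was lost in 5 of 23. The calls of KLK5, KLK10, KRT4 and ELF3 were each lost in 6 of 23. SPRR1B lost its call after adjustment for length, at 0.56 (adjusted p = 0.52).

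Among the genes lower with mitoxantrone, GRHL3 was at 28.4, 15.5 and 22.1, against 139 and 63.8 with pyrimethamine (-2.09 ± 0.43, adjusted p = 0.0209). OVOL1 was at 10.5, 9.04 and 7.72, against 24.5 and 26.7 (-1.41 ± 0.42, adjusted p = 0.0336). The log2 fold change was -1.48 for EVPL (adjusted p = 0.0241), -0.71 for ECM1 (adjusted p = 0.0469) and -0.66 for KRT80 (adjusted p = 0.0286). The ECM1 difference was -0.40 without pyrimethamine replicate 1, and its call was lost in 14 of 23 alternatives. Members with like means are bounded by their intervals: the log2 difference was 0.11 for EMP1, with a 95% interval of -0.24 to 0.47, and -0.01 for KRT13, with an interval of -0.42 to 0.40. The median over the tested members was 0.43, beside -0.02 for all tested genes, and it turned to -0.13 after adjustment for length. With limma on the mitoxantrone and pyrimethamine libraries alone 0 members were called, with 14 at an unadjusted p under 0.05, and 0 were called without mitoxantrone replicate 1 or 2, with 15 and 13 at an unadjusted p under 0.05. Of all 15350 tested genes, 6009, 6383 and 6450 had an unadjusted p under 0.05 in these fits. By edgeR 10 were higher and 6 lower, and by DESeq2 11 and 7. Of all 15350 tested genes, edgeR called 2512 higher and 4201 lower, and DESeq2 called 3728 and 4360.

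**Figure D3:**
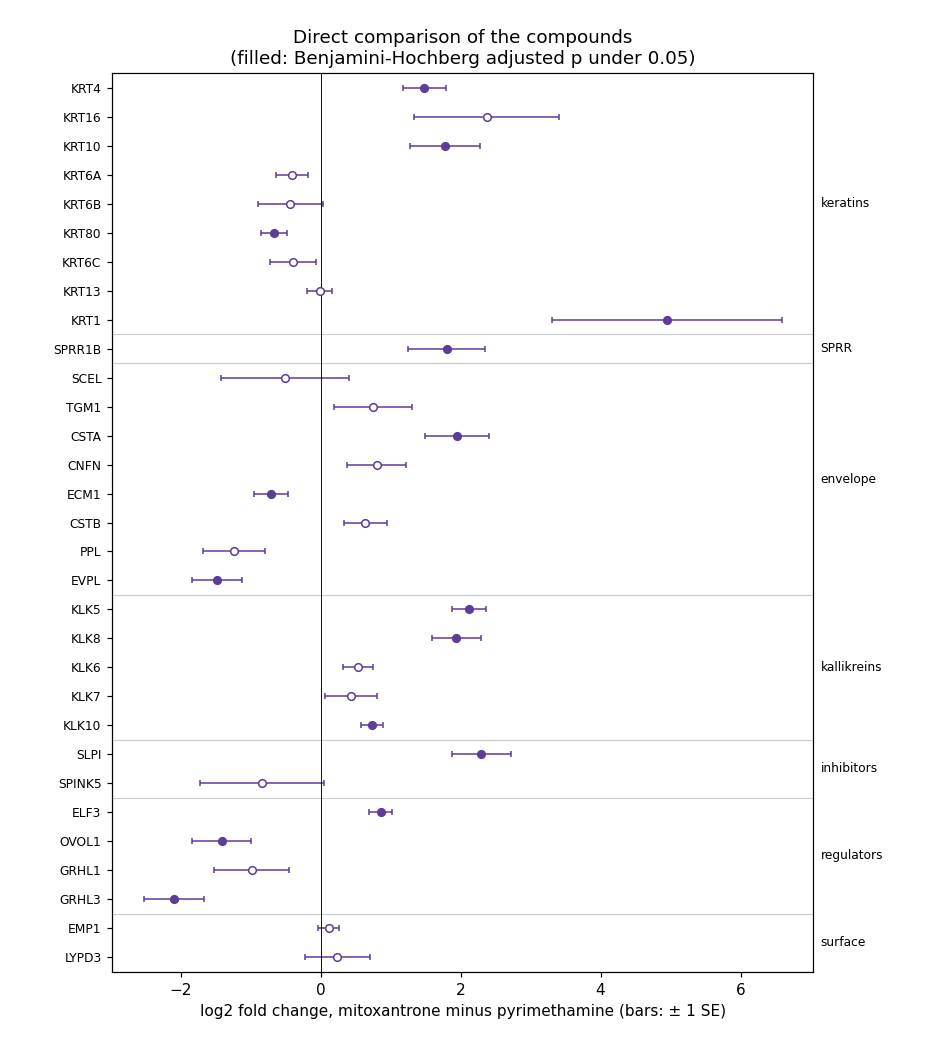
Log2 fold change of mitoxantrone over pyrimethamine for each tested gene, with bars of ± 1 SE from limma; filled points have an adjusted p under 0.05. In this fit, without adjustment for length, the 5 kallikreins all lie to the right of 0. The 3 tested regulators other than ELF3 lie to the left.

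KRT1, the type II keratin of suprabasal epidermis, had 0 reads in both pyrimethamine libraries, 143, 49 and 1 reads in mitoxantrone replicates 1 to 3, and 171, 145 and 41 reads in untreated replicates 1 to 3. Taking 3 reads per library as the floor, its mean was at least 43.0-fold lower with pyrimethamine than in untreated cells (adjusted p = 0.0698) and at least 38.7-fold higher with mitoxantrone than with pyrimethamine (adjusted p = 0.0436). Mitoxantrone replicate 3 was itself under that floor, and the call between the compounds was lost without mitoxantrone replicate 1 (adjusted p = 0.116) or 2 (adjusted p = 0.121), without any 1 untreated library (adjusted p = 0.0656 to 0.0691), and in 13 of 23 alternatives in all. Among other members of the list, SBSN (suprabasin), CALML5 and DSG1 (desmoglein of the upper epidermis) were also at or near 0 with pyrimethamine. SBSN had 0 normalised reads in both pyrimethamine libraries and 19.4, 10.3 and 3.31 with mitoxantrone, against 18.4, 12.9 and 9.33 untreated. CALML5 had 0 in both pyrimethamine libraries and 13.5, 7.75 and 0 with mitoxantrone, against 7.35, 9.12 and 16.6. DSG1 had 5.71 and 1.03 with pyrimethamine and 19.4, 3.87 and 0 with mitoxantrone, against 16.5, 13.7 and 9.33. Outside the list, the epidermal genes KRT2, LOR (loricrin) and FLG2 (filaggrin 2), named after their values were seen, were also low in those libraries. FLG, DSC1 and KRT10, also genes of the upper epidermis, did not follow that pattern. FLG (filaggrin) was at 3387 and 461 with pyrimethamine and 455, 550.04 and 884 with mitoxantrone, against 834, 1215 and 1141 untreated. DSC1, a desmocollin, was at 61.1 and 48.3 with pyrimethamine, above 31.2 to 37.7 untreated, and KRT10 was at 281 and 1142 with pyrimethamine. The 7 low genes summed to 11 and 3 reads with pyrimethamine and to 199, 127 and 5 reads with mitoxantrone, against 343, 272 and 155 reads in untreated libraries. They were chosen for being low with pyrimethamine, so the low sum there was set by the choice. In this sum, mitoxantrone replicate 3 stood with the pyrimethamine libraries and apart from the other mitoxantrone libraries. That rested mainly on KRT1 and on KRT2, which had 15, 57 and 0 reads in mitoxantrone replicates 1 to 3. This did not hold for each gene. LOR was low in all mitoxantrone libraries, at 7.48, 2.58 and 1.1, against 26.7, 20.5 and 24.9 untreated. FLG2 was too, at 1.5, 2.58 and 0, against 23.9, 14.4 and 10.4. DSG1 in mitoxantrone replicate 2, at 3.87, lay between its pyrimethamine values.

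**Figure D4:**
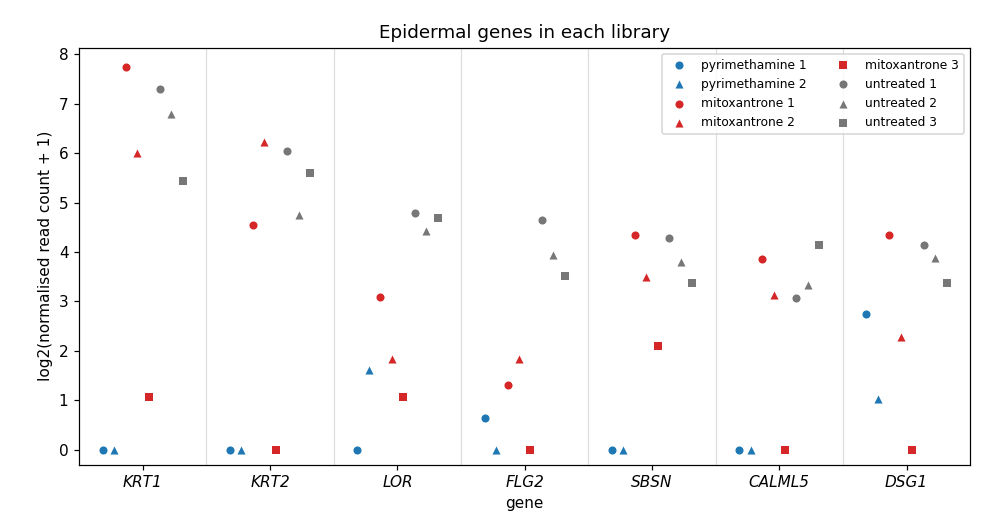
Log2(normalised read count + 1) of 7 epidermal genes, chosen after their values were seen, with 1 point per library (colour gives the group, symbol the replicate). Both pyrimethamine libraries and mitoxantrone replicate 3 lie at or near 0 for KRT1, KRT2 and CALML5, while the untreated libraries lie well above 0 for all 7 genes.

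Other genes of squamous differentiation were taken from the families and the pathway, with earlier results of these data known. Of these, 99 were in the table and were followed in the same fits. Of the 43 tested, 17 were higher and 8 lower with mitoxantrone, and 11 higher and 1 lower with pyrimethamine. Of all tested genes, 26.8% were called higher and 28.1% lower with mitoxantrone, and 2.29% higher and 1.31% lower with pyrimethamine. In the epidermal differentiation complex the late envelope gene LCE1F rose to 417, 398 and 404 with mitoxantrone, against 40.4, 19.8 and 29 (3.78, adjusted p = 0.000325), and to 110 and 232 with pyrimethamine (2.44, adjusted p = 0.02). LCE1C and LCE1E had 1.97 and 2.14 with mitoxantrone, and LCE reads can be shared between close copies. PRR9, a proline-rich gene of the same complex, had 53.7 and 182 with pyrimethamine and 495, 478 and 443 with mitoxantrone, against 4.60, 4.56 and 1.04. Its level with a compound carried it into the test. Loricrin (LOR) fell, to 0 and 2.06 with pyrimethamine and to 7.48, 2.58 and 1.1 with mitoxantrone, against 26.7, 20.5 and 24.9 (adjusted p = 0.034 and 0.0114).

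Of 10 further proteases and inhibitors, 7 were higher and 1 lower with mitoxantrone, where 26.8% and 28.1% of all tested genes were called, and 3 were higher with pyrimethamine, where 2.29% were. Cathepsin V (CTSV), a cysteine protease that cystatins inhibit, rose to 7002 and 4858 with pyrimethamine (1.53, adjusted p = 0.0167) and to 16124, 15547 and 13697 with mitoxantrone (2.90, adjusted p = 0.000165), against 2120, 2084 and 1850. SPINK6, a kallikrein inhibitor, reached 50.2 and 167 and 876, 1032 and 671 in the same groups, against 9.19, 13.7 and 5.18. Cystatin M (CST6) rose by 3.88 on the log2 scale with mitoxantrone (adjusted p = 0.000769), and TMPRSS11E, a membrane serine protease, had 1.24 with pyrimethamine (adjusted p = 0.0412). Among 3 further keratins tested, KRT23 rose with either compound, at 1.97 with pyrimethamine and 3.43 with mitoxantrone (adjusted p = 0.0429 and 0.000519). KRT75 reached 419 and 279 with pyrimethamine (2.13, adjusted p = 0.0207) and 71.8, 132 and 117 with mitoxantrone (adjusted p = 0.265), against 72.6, 63.8 and 99.5.

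Of 11 cross-linking, junction and lipid genes, 3 were higher and 2 lower with mitoxantrone, close to or under the 26.8% and 28.1% of all tested genes. PADI1, a peptidylarginine deiminase of upper layers, rose with pyrimethamine (1.73, adjusted p = 0.0235) and with mitoxantrone (1.79, adjusted p = 0.00148). ALOXE3, a lipoxygenase of barrier lipid synthesis, had 1.71 with pyrimethamine (adjusted p = 0.0379), while CYP4F22, a hydroxylase of the same lipids, had 1.75 and missed the threshold (adjusted p = 0.0772). CLIC3, an intracellular chloride channel protein, had 3.12 with mitoxantrone (adjusted p = 0.000718). DSG3, the basal desmoglein, fell to 676, 633 and 663 with mitoxantrone, against 3127, 3346 and 3011 (-2.26, adjusted p = 0.00166). Of 13 further regulators 2 were higher and 4 lower with mitoxantrone, under or near the shares of all tested genes (26.8% and 28.1%), and 1 was higher with pyrimethamine (2.29%). KLF4, a driver of barrier genes, was the one called with pyrimethamine, at 698 and 430 against 194, 226 and 256 (1.29, adjusted p = 0.0429). OVOL2, a zinc finger factor related to OVOL1, had 0.50 with pyrimethamine and did not pass (adjusted p = 0.346). PITX1, NOTCH3 and CASZ1 fell with mitoxantrone, with log2 fold changes of -0.98, -1.54 and -1.37 (adjusted p = 0.00164, 0.00667 and 0.0207).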

How the data were processed

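RNA-seq libraries of KYSE70 cells (2 pyrimethamine, 3 mitoxantrone, 3 untreated) were grouped by their titles. The submitters' processing notes name the build hg38 and, as tools, featureCounts 1.5.1, STAR 2.6.90c, cutadapt 1.12 and FastQC 0.11.5. For annotation, strand setting and shared reads the sources used here give nothing, so close copies (KRT6A, KRT6B and KRT6C; SPRR2 and LCE genes) are uncertain. The deposited signal values are DESeq2-normalised counts by the authors' naming of the table, that is, reads over 1 size factor per library. All values were whole multiples of a single step per library within 0.1 read, so reads were recovered (17555689 to 24774358 per library). Depth limits genes under about 10 reads, and counts cover counting error only.

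Groups were compared with limma 3.58.1 under R 4.3.3, with a variance trend on log2(value + 1), which understates changes of low genes, for 15350 genes with a mean of at least 10, fitted on all 8 libraries with group as the single term and 5 residual degrees of freedom, two-sided; p-values were adjusted by Benjamini-Hochberg and called under 0.05. It was tested on simulated data. edgeR 4.0.16 and DESeq2 1.42.0 on recovered reads, other scalings, pseudocounts, filters, library weights, a block by replicate number, a fit on the 2 groups alone, a length adjustment and leaving out each library were alternatives. Members and lists were chosen with earlier results of these data known, so the members get no list test. For each role the 2 tested members with the smallest adjusted p per compound and the highest in untreated cells were to be named, and all other members were added; of the other genes, up to 3 per list and compound, of which 1 is not reported here. LOR is named with its values as 1 of the 7 epidermal genes. Exon lengths and positions came from GENCODE 29 on GRCh38, which gave 91.4% of tested genes a length, and promoters from RefSeq on GRCh38.p14. Levels are compared between genes per kilobase of exon.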

Additional observations from a re-analysis of the deposited data

How the results depend on the processing

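Counts in the comparisons with pyrimethamine moved widely between settings. The genes changed by pyrimethamine numbered 553 in the report's fit, 1738 with DESeq2, 322 with quantile normalisation, 291 with no filter, 958 after length adjustment, 0 with the 2 groups alone (2077 at an unadjusted p under 0.05; edgeR 670), 0 with library weights (500 at an unadjusted p under 0.05) and 10 to 7571 when 1 library was left out (10 to 11 without an untreated, 61 to 144 without a mitoxantrone, and 7276 and 7571 without a pyrimethamine library). The genes differing between mitoxantrone and pyrimethamine numbered 6299, and 0 with the 2 groups alone (6009 at an unadjusted p under 0.05; edgeR 6713, DESeq2 8088), 884 with library weights and 0 to 11638 with 1 library left out. Upper-quartile scaling gave 501 higher and 139 lower with pyrimethamine, beside 352 and 201, with the median of all genes at 0.04 in place of -0.08; edgeR gave 2512 higher and 4201 lower between the compounds, beside 3247 and 3052.

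For the members, those lower with mitoxantrone (4) were 7 with the 2 groups alone, 8 with library weights and 7 after length adjustment. All genes called lower in these fits numbered 5869, 6187 and 3892, beside 4311 in the report's fit. Members lower were 2 to 4 with 1 mitoxantrone or untreated library left out. Members higher with pyrimethamine (5) were 10 with DESeq2, 0 with the 2 groups alone or library weights, and 0 to 13 with 1 library left out; members lower (1) were 2 with DESeq2, a mean of at least 1 or no filter, 0 with the 2 groups alone or library weights, and 0 to 5 with 1 library left out. Members higher with mitoxantrone than pyrimethamine (10) were 0 with the 2 groups alone, 3 with library weights and 0 to 8 with 1 mitoxantrone or untreated library left out. Members lower (5) were 3 with no filter, 0 with the 2 groups alone or library weights, and 0 to 3 with 1 mitoxantrone or untreated library left out. Library weights (limma) left 4 members for pyrimethamine and 7 between the compounds at an unadjusted p under 0.05, beside 500 and 3783 of all 15350 tested genes.

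Whether the replicate numbers pair the samples is not stated in the sources used here. By the titles' numbers, deviations of same-numbered mitoxantrone and untreated libraries correlated at 0.0526, -0.00784 and 0.0183. Those of pyrimethamine and mitoxantrone libraries correlated at -0.287 and 0.127, and those of pyrimethamine and untreated libraries at -0.0841 and -0.12. With so few libraries per group, these correlations cannot show whether the samples were paired. The descriptions' numbers were not used for these correlations. With a replicate block, by the titles' or the descriptions' numbers, genes changed by pyrimethamine and genes differing between the compounds were 0 and members called in them 0, with 2084 and 2027, and 7359 and 6499, genes at an unadjusted p under 0.05. With mitoxantrone the block gave 14 members higher and 3 lower, and the KRT80 call was lost (adjusted p = 0.0517 and 0.0657). No direction of a called member reversed in the alternatives run. The causes of these shifts were not tested.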
